A study of Mus musculus with 4 samples.

Results

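Neuropilins, semaphorins and plexins are a set of ligands and receptors first known from the guidance of axons and also used by immune cells. The 10 genes described here are the neuropilins Nrp1 and Nrp2, the semaphorins Sema4a, Sema4b, Sema4d and Sema7a, and the plexins Plxna1, Plxnb2, Plxnc1 and Plxnd1. They were taken by gene symbol from a table of 50600 annotated genes, and all 10 were found. They belong to a family that has 31 genes in the table, so 21 family genes lie outside the 10.

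The libraries hold RNA of regulatory T cells, a class of CD4+ lymphocyte that holds immune responses in check. The cells were mouse primary cells of strain C57BL/6NJ, and the 4 libraries form 1 group, numbered as biological replicates 1 to 4. No genotype, allele or treatment is given in the labels, age and developmental stage are unknown, sex was not collected, and the file headers have output names with activated and 24h in them. A protocol for CD4+ T cell differentiation is linked from the labels, and all 4 libraries have the same donor identifier. The labels do not say whether the libraries came from separate animals or cultures. Sex-linked genes, given below, set replicates 1 and 2 apart from replicates 3 and 4. The p-values cover only the spread of these libraries, part of which may be technical. There is no untreated or control arm, and each result is a level, an order of levels or a spread between libraries.

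Semaphorins are secreted or membrane-bound ligands, and plexins are their main receptors, whose cytoplasmic part acts on small GTPases of the Ras and Rap families and on the cytoskeleton. Neuropilins have a short cytoplasmic tail and act as coreceptors, for secreted class 3 semaphorins and for vascular endothelial growth factors. In mouse regulatory T cells Nrp1 is a surface marker used for cells of thymic origin, and Sema4a is a known ligand of Nrp1 there. Sema4d, also called CD100, is a semaphorin of lymphocytes that binds plexins of the B class and, in immune cells, the receptor Cd72.

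The 4 totals, in the order of the replicates, were 38590127, 44357436, 48312918 and 93035969 fragments. The cells carried the genes that define their label: all 8 T cell markers and 7 of 8 regulatory T cell markers had a mean of at least 10 TPM (a transcript level scaled for gene length and library total). They included the T cell receptor gene Trac at 1436 ± 156 TPM, Il2ra, which encodes CD25, at 702 ± 44.1 and Ctla4, an inhibitory receptor gene, at 245 ± 26.5 (SD, n = 4). Foxp3, the lineage factor, had 101.2, 93.0, 125 and 115 TPM in replicates 1 to 4, and Ikzf2 was the lowest of the 8 at 4.32 ± 0.788 TPM (SD, n = 4). Replicate 1 stood apart, with 88.2% of its TPM in protein-coding genes against 95.6 to 96.6% in the others, and with the rRNA-related feature Gm42418 at 2.04% of its fragments against 0.0704 to 0.175%. Xist was high in replicates 1 and 2 (100.4 and 88.7 TPM) and low in replicates 3 and 4 (0.716 and 0.603), and the Y-linked gene Ddx3y lay the other way, at 0.159 and 0.101 TPM against 46.1 and 40.6. By these genes replicates 1 and 2 were female and replicates 3 and 4 male. What part of the spread between libraries was technical was not tested.

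The first question was which members the cells express and at what level. Of the 10 members, 9 had a mean of at least 1 TPM and 6 of at least 10 TPM, where 47.7% and 36.2% of the 21764 protein-coding genes reached those levels. These counts describe the list and carry no test. The median of the members' means was 22.9 TPM, beside 0.520 TPM over all protein-coding genes and 30.96 TPM over the 10383 with a mean of at least 1 TPM. Among those expressed genes the members ranged widely, from percentile 83.9 for Sema4d to percentile 7.37 for Plxnc1, with Nrp2 below 1 TPM.

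**Figure D1:**
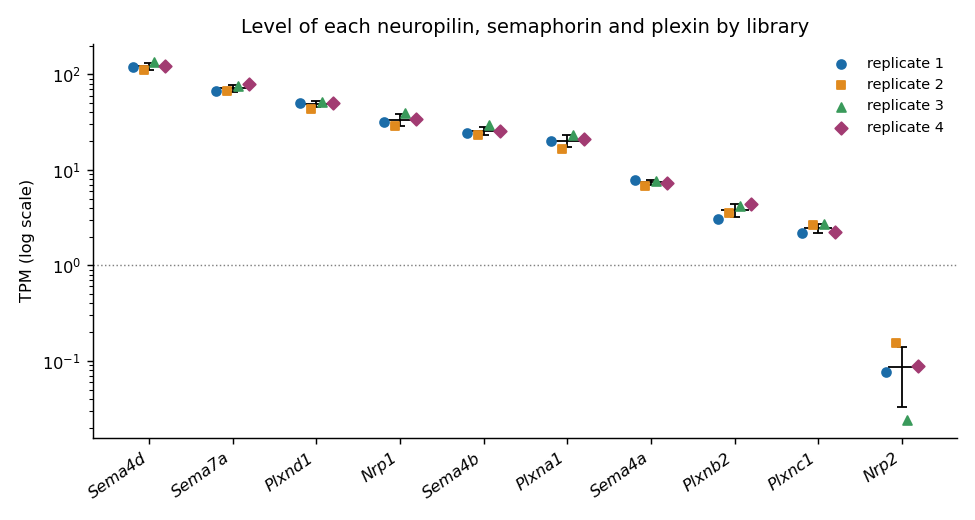
TPM (log scale) of the 10 members in each of the 4 libraries. Points are libraries, horizontal bars and whiskers are the mean and SD, and the dotted line marks 1 TPM. Sema4d is highest at 122 TPM, 9 members lie above the line and Nrp2 lies below it at 0.0856 TPM.

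Among the ligands, Sema4d was the highest gene of the whole family. Sema4d (ENSMUSG00000021451.15, chromosome 13, 51701246 to 51793747, minus strand, mm10) had 121, 109.9, 135 and 124 TPM in replicates 1 to 4, a mean of 122 ± 10.3 (SD, n = 4). The lowest library of Sema4d was replicate 2 and the highest replicate 3, a ratio of 1.23. Sema7a encodes a semaphorin held in the membrane by a lipid anchor, which binds plexin C1 and an integrin. It had 66.8, 66.6, 74.9 and 79.0 TPM, a mean of 71.8 ± 6.15 (ENSMUSG00000038264.8, chromosome 9, 57940112 to 57962865, plus strand). Every library of Sema4d lay above every library of Sema7a.

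Sema4b and Sema4a, transmembrane ligands of the same class as Sema4d, were lower. Sema4b had 24.6, 23.3, 29.3 and 25.6 TPM, a mean of 25.7 ± 2.57 (ENSMUSG00000030539.13, chromosome 7, 80186841 to 80226527, plus strand). Sema4a had 7.85, 6.76, 7.66 and 7.23 TPM, a mean of 7.37 ± 0.486 (ENSMUSG00000028064.17, chromosome 3, 88435959 to 88461182, minus strand). By TPM over all genes, Sema4a had the lowest coefficient of variation of the 9 expressed members, at 6.60%. With TPM over protein-coding genes only it did not, at 7.84 ± 0.786 beside 76.2 ± 5.02 for Sema7a (SD, n = 4). Each library of Sema4a lay below every library of Sema4b.

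Of the coreceptors, Nrp1 was expressed at a middle level and its paralogue Nrp2 was at the edge of detection. Nrp1 (ENSMUSG00000025810.9, chromosome 8, 128358604 to 128503363, plus strand) had 31.5, 29.0, 39.6 and 34.0 TPM in replicates 1 to 4, a mean of 33.5 ± 4.54 (SD, n = 4). Nrp2 (ENSMUSG00000025969.15, chromosome 1, 62703285 to 62818695, plus strand) had 11, 24, 4 and 29 fragments, where a count of 0 allows up to 3, and its level was 0.0768, 0.153, 0.0241 and 0.0888 TPM. Nrp1 held 99.7 ± 0.191% of the summed neuropilin TPM. The Nrp2 share of the library was 0.541 CPM (fragments scaled to the library total) in replicate 2, with a 95% exact binomial interval of 0.347 to 0.805, and 0.0828 CPM in replicate 3, with an interval of 0.0226 to 0.212. These intervals cover counting error only, and replicates 1 and 4 lay between, at 0.285 and 0.312 CPM. Nrp2 was too low for the test of variation below. With no filter on low counts that test, on edgeR's quasi-likelihood dispersion, gave Nrp2 an unadjusted p of 0.275 and an adjusted p of 0.961.

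Other genes used with Nrp1 to mark regulatory T cells were also expressed. Here Izumo1r, which encodes a folate receptor family protein, had 92.0 ± 11.4 TPM, and Nrp1 exceeded Ikzf2, which encodes Helios, by 6.88 to 10.2 times in TPM. The Nrp1 to Foxp3 ratio of TPM, chosen after the values were seen, was 0.312, 0.312, 0.316 and 0.295 in replicates 1 to 4. Both genes were lowest in replicate 2 and highest in replicate 3, as were Sema4d, Sema4b, Plxna1 and Plxnd1. Of the 11054 protein-coding genes tested, 23.3% were lowest in replicate 2 and 39.2% were highest in replicate 3. With the length of the longest transcript of each gene, an alternative added after the values were seen, the mean ratio of Nrp1 to Foxp3 was 0.796, against 0.309 by the deposited length, and that of Nrp1 to Ikzf2 was 16.97, against 7.91.

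Among the receptors, Plxnd1 led. Plxnd1, a receptor of Sema3e that acts in thymocyte migration in mice (ENSMUSG00000030123.15, chromosome 6, 115954811 to 115995005, minus strand), had 49.8, 43.5, 51.0 and 50.1 TPM, a mean of 48.6 ± 3.43 (SD, n = 4). Replicate 2 lay below the other libraries, which were within 1.21 TPM of each other. With TPM over protein-coding genes only the SD was larger for its mean, at 51.6 ± 4.53. Plxna1, a receptor that works with neuropilins for class 3 semaphorins (ENSMUSG00000030084.11, chromosome 6, 89316314 to 89362620, minus strand), had 20.25, 16.4, 23.2 and 20.95 TPM, a mean of 20.2 ± 2.81. Its lowest library was again replicate 2.

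Plxnb2 and Plxnc1 were expressed at a few TPM. Plxnb2, a receptor of class 4 semaphorins (ENSMUSG00000036606.16, chromosome 15, 89155549 to 89171120, minus strand), had 3.08, 3.55, 4.22 and 4.42 TPM, a mean of 3.82 ± 0.617. Plxnc1, the plexin that binds Sema7a (ENSMUSG00000074785.5, chromosome 10, 94790866 to 94944835, minus strand), had 2.19, 2.66, 2.74 and 2.24 TPM, a mean of 2.46 ± 0.284. Plxnb2 and Plxnc1 did not overlap, although their means differ by a ratio of 1.55 only. Depth limits these 2 genes least in replicate 4, with 867 and 515 fragments, and most in replicate 1, with 265 and 221.

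The order of the levels was Sema4d, Sema7a, Plxnd1, Nrp1, Sema4b, Plxna1, Sema4a, Plxnb2, Plxnc1 and Nrp2. Of the 9 pairs of neighbours in this order, 8 had ranges over the 4 libraries that did not overlap. The exception was Nrp1 and Sema4b, where the lowest library of Nrp1 (29.0 TPM) was below the highest of Sema4b (29.3 TPM), although Nrp1 was higher in 4 of 4 libraries, by 0.37 ± 0.05 on the log2(TPM + 1) scale. By the deposited length, the largest step between expressed neighbours was that from Plxna1 to Sema4a, at 1.33 ± 0.14. The smallest was that from Sema4b to Plxna1, at 0.34 ± 0.10. An exact permutation test that flips the signs of the library differences gave each of the 9 the smallest two-sided p that 4 libraries allow, 2 of 16 sign patterns, which cannot pass 0.05.

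The place of Nrp1 in this order depends on the length used. The deposited length of a gene is the union of its exons, 9785 bp for Nrp1, whereas its longest transcript in GENCODE release 21 is 3645 bp. Fragments were counted over the whole union, from GENCODE M13, and how many lay outside that transcript cannot be told from counts per gene. With the length of the longest transcript Nrp1 had 71.4 ± 9.43 TPM and stood second, above Sema7a (56.9 ± 4.59) and Plxnd1 (40.7 ± 2.93), and Sema4d was still first at 139.5 ± 11.6. Under that length the other 8 expressed members moved by factors of 0.793 for Sema7a to 1.34 for Sema4a. The steps also changed on the log2(TPM + 1) scale. That from Plxna1 to Sema4a was 0.64, that from Sema4a to Plxnb2 1.34 and that from Sema4b to Plxna1 0.83.

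**Figure D2:**
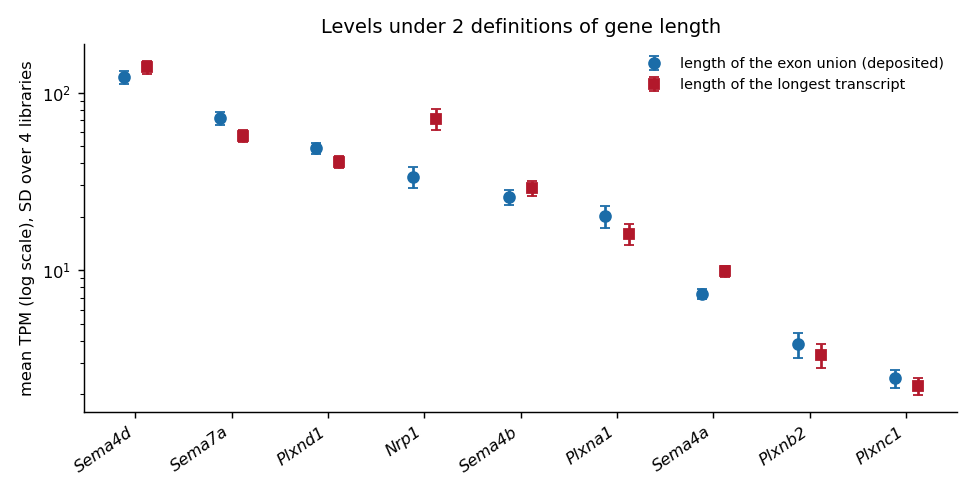
Mean TPM (log scale) of the 9 expressed members with the length of the exon union in the deposited tables (circles) and with the length of the longest annotated transcript (squares). Whiskers are the SD over 4 libraries. Nrp1 stands at 33.5 TPM with one and at 71.4 TPM with the other, the largest shift of the 9.

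To show what lies at the start of genes at the top, middle and bottom of this order, RefSeq promoter windows (build GRCm38.p6, 250 bases before to 50 after an annotated start) are printed for Sema4d at chr13:51748761-51749060 (minus strand), Nrp1 at chr8:128358823-128359122 (plus strand) and Nrp2 at chr1:62703067-62703366 (plus strand). Capitals mark CG dinucleotides, and each window reads 5′ to 3′ on the strand of its gene.
Sema4d: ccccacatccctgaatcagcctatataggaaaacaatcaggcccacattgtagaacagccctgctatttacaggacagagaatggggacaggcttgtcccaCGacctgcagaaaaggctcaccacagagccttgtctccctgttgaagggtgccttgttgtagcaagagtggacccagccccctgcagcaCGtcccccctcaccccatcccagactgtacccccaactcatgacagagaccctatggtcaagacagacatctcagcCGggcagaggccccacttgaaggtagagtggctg
Nrp1: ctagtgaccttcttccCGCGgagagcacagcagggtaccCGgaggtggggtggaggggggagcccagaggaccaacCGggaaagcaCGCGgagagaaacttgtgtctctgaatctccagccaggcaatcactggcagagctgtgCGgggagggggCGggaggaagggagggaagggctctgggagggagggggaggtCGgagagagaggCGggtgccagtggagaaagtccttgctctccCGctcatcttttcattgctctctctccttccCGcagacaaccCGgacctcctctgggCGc
Nrp2: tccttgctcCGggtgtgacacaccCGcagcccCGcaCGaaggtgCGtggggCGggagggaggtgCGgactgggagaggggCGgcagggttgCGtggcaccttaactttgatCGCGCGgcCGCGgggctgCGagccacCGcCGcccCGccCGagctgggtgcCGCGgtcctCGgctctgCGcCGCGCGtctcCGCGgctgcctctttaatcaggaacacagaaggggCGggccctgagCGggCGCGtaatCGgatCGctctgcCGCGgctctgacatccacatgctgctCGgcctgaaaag
Nrp2, the lowest member, had 37 CG dinucleotides in this window, Nrp1 14 and Sema4d, the highest, 3. The other windows of Sema4d had 3 and 2. Not all other members followed that order: Sema7a and Plxnd1, next in level to Sema4d, had 23 each, Sema4b 26 and 28, and the lower Sema4a 4, 5, 7 and 14. Plxnb2 and Plxnc1, lower still, lay nearer to it, with 27 and 15 for Plxnb2 and 30 for Plxnc1. Over all 32851 RefSeq windows the median was 7, and 9 of the 10 members had a window, 16 windows in all, with a median of 14.5. The annotated starts of the Sema4d windows lie 37064 to 54301 bp downstream of the 5′ end that the deposited table gives the gene, and that of Nrp1 lies 469 bp downstream. Which start the cells used was not tested.

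Matches to 5 short motifs were few in the 16 windows, searched on both strands. The AP-1 motif TGANTCA and the RUNX motif TGTGGT were each found in 1 window, both in the Sema4d window printed above, where 7.81% and 16.8% of all windows hold them. The forkhead motif TGTTTAC, the STAT motif TTCNNNGAA and the ETS motif CCGGAAG were in 0 of 16, beside 3.65%, 8.30% and 8.86% of all windows. A match or its lack describes the letters of these windows alone.

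The wider family showed the classes that the 10 members leave out. Of the 31 family genes, 13 had a mean of at least 1 TPM, 7 at least 10 TPM, and 8 had 0 fragments in all 4 libraries, which allows up to 0.0322 CPM in the deepest library and 0.0777 CPM in the shallowest. The 9 members and 4 of the other 21 genes made up the 13. These 4 were Sema4c, a class 4 semaphorin that binds Plxnb2, at 37.9, 35.6, 40.9 and 40.4 TPM, Sema4f at 3.39 ± 0.278 TPM, Plxna3 at 3.28 ± 0.504 and Plxnb1, the main plexin receptor of Sema4d, at 1.57 ± 0.208. By the deposited lengths every library of Sema4c lay above every library of Sema4b and Sema4a, whereas its range overlapped that of Nrp1.

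Expressed semaphorins were of class 4 and class 7. Of 6 class 4 genes, 5 reached 1 TPM, Sema4g being the exception with 1, 1, 2 and 28 fragments. Of 7 secreted class 3 genes none reached a mean of 1 TPM over the 4 libraries. Sema3b was highest at 1.21, 0.567, 0.731 and 1.09 TPM in replicates 1 to 4, a mean of 0.899 ± 0.301 that was 1.01 without replicate 2, and Sema3a, Sema3c, Sema3e and Sema3g had 0 fragments. None of the 2 class 5 or 4 class 6 genes reached 1 TPM, with Sema6b at 0.662 ± 0.134 TPM and Sema5b and Sema6a at 0 fragments. Sema3e, the class 3 ligand that binds Plxnd1, was thus at 0 fragments while its receptor was the leading plexin.

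**Figure D3:**
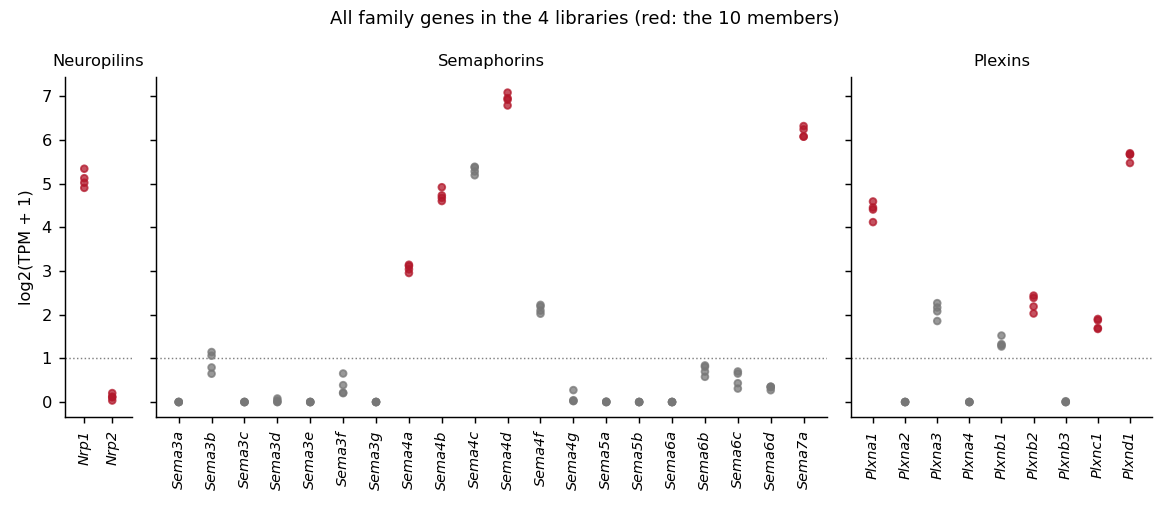
log2(TPM + 1) of all 31 neuropilin, semaphorin and plexin genes, with 1 point for each of the 4 libraries, the 10 members in red and the other 21 genes in grey. The dotted line marks 1 TPM. Points above it are the class 4 genes other than Sema4g, Sema7a, Nrp1 and 6 plexins, and the libraries of Sema3b lie about it.

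Summed over each class, semaphorins had 264, 248, 294 and 282 TPM in replicates 1 to 4 (mean 272 ± 20.2), plexins 79.9, 70.2, 86.4 and 83.1 (mean 79.9 ± 6.99) and neuropilins 31.6, 29.1, 39.6 and 34.1 (mean 33.6 ± 4.50; SD, n = 4). With the length of the longest transcript the sums were 66.6 TPM for plexins and 71.5 for neuropilins, so the order of these classes turned. By the deposited length the semaphorin sum was 3.31 to 3.53 times the plexin sum in the 4 libraries. Sema4d held 45.0 ± 0.983% of the semaphorin sum and Plxnd1 60.9 ± 1.52% of the plexin sum. Plxna2 and Plxna4 had 0 fragments, and Plxnb3 had 1 fragment in replicate 1 alone.

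Ligand and receptor levels within the same cells were unequal. Sema4d exceeded Plxnb1 by 66.0 to 89.6 times in TPM, and exceeded its immune receptor Cd72 (54.0 ± 6.05 TPM) by 2.13 to 2.57 times. Plxnb2, the B-class plexin gene with the highest level, had 3.82 ± 0.617 TPM. Sema7a exceeded Plxnc1 by 29.5 ± 4.45 times, whereas Itgb1, the integrin beta chain of its other receptor, was higher than Sema7a, at 174 ± 14.7 TPM. Itga1, the alpha chain that pairs with it as a Sema7a receptor, had 0 fragments. Sema4a stood at 0.193 to 0.249 times the TPM of Nrp1, with a mean of 0.139 with the length of the longest transcript in place of the deposited 0.222. These are RNA levels, and a bulk library cannot tell fewer cells with a transcript from less of it in each cell.

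Of 10 other semaphorin receptors listed, 4 reached 1 TPM and 2 reached 10 TPM, Itgb1 and Cd72, followed by the adhesion molecule gene L1cam at 2.94 ± 0.204. Timd2, which encodes a receptor of Sema4a in mice, had 0.670 ± 0.205 TPM. The list median was 0.384 TPM, beside 0.520 over all protein-coding genes.

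Among partners of the neuropilins, genes of TGF-beta signalling and of the cytoplasm were expressed, whereas 2 vascular receptor genes were not detected. Of 15 listed genes, 9 reached 1 TPM and 7 reached 10 TPM, with a median of 7.54 TPM. Tgfb1, the cytokine that Nrp1 can also bind, had 237 ± 14.2 TPM, Gipc1, which encodes an adaptor for the Nrp1 tail, 113 ± 10.8, and the receptor gene Tgfbr1 79.0 ± 7.79. The vascular growth factor genes Vegfb and Vegfa had 31.1 ± 5.10 and 7.54 ± 0.750 TPM. The vascular receptor genes Kdr and Flt4 had 0 fragments.

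Genes that act inside the cell below plexins were then counted beside all protein-coding genes, of which 47.7% reached 1 TPM and 36.2% reached 10 TPM. Of 18 GTPase and exchange factor genes, 15 reached 1 TPM and 10 reached 10 TPM, with a median of 13.3 TPM. Rap1b, a GTPase of the Rap family that plexins act on, had 658 ± 61.0 TPM, Rac1, which binds plexins, 214 ± 16.03, and Rhoa, which plexins of the B class reach through exchange factors, 125 ± 9.46. Rras and Rras2, which encode R-Ras proteins, had 13.9 ± 2.17 and 74.3 ± 5.38 TPM, and Mras was lowest, at 0.0792 ± 0.0843. Of 20 cytoplasmic effectors, 17 reached 1 TPM and 12 reached 10 TPM, with a median of 21.1 TPM. Cofilin, Cfl1, which severs actin filaments, led at 1947 ± 120.1 TPM, with the kinase genes Gsk3a at 204 ± 6.01 and Fyn at 168 ± 9.01, and Mical1, which encodes an enzyme that oxidises actin, had 58.4 ± 4.67. The collapsin response genes Dpysl3, Dpysl4 and Dpysl5 had 0 fragments, while their relative Dpysl2 had 25.1 ± 3.38 TPM.

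Of 8 proteases that cut semaphorins or their partners, 5 reached 1 TPM and 4 reached 10 TPM, with a median of 18.5 TPM. Furin, the proprotein convertase that activates semaphorins, had 447 ± 31.6 TPM, the sheddase gene Adam10 106 ± 8.64, Pcsk7 37.2 ± 1.16 and Adam17 35.4 ± 1.77, and Pcsk5 had 0 fragments. Of 40 measured genes of the ephrin, Slit and netrin families of guidance cues, 8 reached 1 TPM and 1 reached 10 TPM, Ephb6 at 11.3 ± 1.15, followed by Rgmb at 8.21 ± 0.729 and Efnb1 at 4.07 ± 1.05. Their median was 0.0730 TPM and 12 had 0 fragments, Epha4 among them. The median of the 31 neuropilin, semaphorin and plexin genes was 0.445 TPM.

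Other cells known to express members of the family left little trace. Markers of plasmacytoid dendritic cells, which carry Nrp1 in humans, had 3 of 8 at 1 TPM or more, with a summed level of 254 to 282 TPM that was nearly all Bst2 (238 ± 14.3) and Pacsin1 (19.96 ± 3.10), and the defining marker Siglech had 0 fragments. Endothelial markers had 2 of 8 at 1 TPM or more, with a sum of 14.2 to 18.6 TPM led by Egfl7 (11.6 ± 1.53) and Pecam1 (4.93 ± 0.366), and Kdr, Emcn and Vwf had 0 fragments. The summed levels were 2.47 to 3.77 TPM for conventional dendritic cells (1 of 8 at 1 TPM or more), 1.20 to 1.94 for macrophages and monocytes (1 of 8), 3.75 to 5.18 for B cells (2 of 8) and 0 to 0.0247 for neutrophils (0 of 8). Lyz2, C1qa, Clec9a, Cd209a, S100a8 and S100a9 had 0 fragments. The summed level of the 10 members was 302 to 368 TPM, and what part other cells had in it was not tested.

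The second question was whether any member varied between the libraries. Of the 9 members tested, 0 passed a test for more variation than genes of like abundance, which 0.468% of the 12396 genes passed (58 genes, edgeR's quasi-likelihood dispersion with Benjamini-Hochberg adjustment at 0.05). At an unadjusted p under 0.05 the count was 2 of 9 members, Nrp1 and Plxna1, beside 5.33% of all genes, and DESeq2's dispersion-outlier flag marked 0 of the 9 members and 69 genes in all. By the quasi-likelihood dispersion test, Plxna1 had an unadjusted p of 0.0111 and an adjusted p of 0.681. By the same test Nrp1 had an unadjusted p of 0.0155 and an adjusted p of 0.784. Without replicate 2 the unadjusted p of Plxna1 was 0.723 and that of Nrp1 was 0.133, and without replicate 3 they were 0.0136 and 0.134. The other 7 members had adjusted p-values of 0.974 to 0.997. Of the 31 family genes, 18 were tested and 0 passed. The fit took the libraries as 1 group, so any difference between female and male libraries is inside this spread, and its part was not tested.

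**Figure D4:**
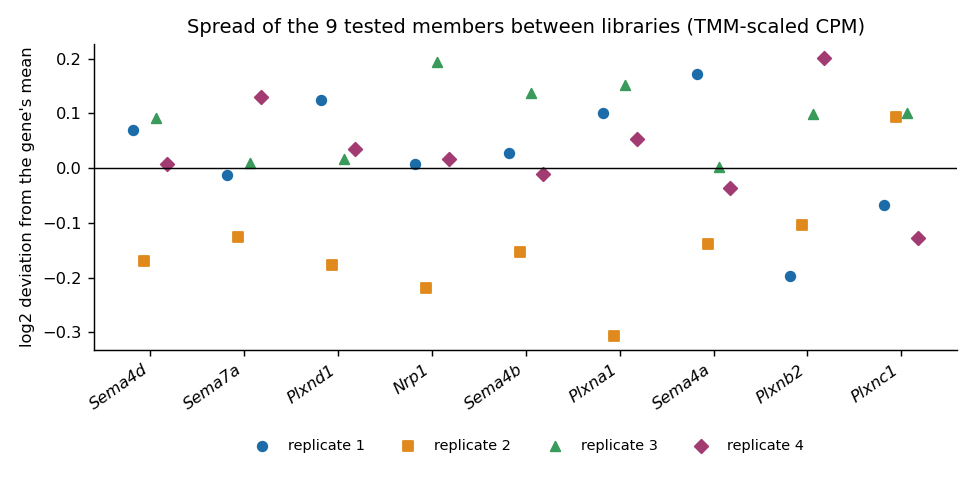
log2 deviation of each library from the gene's mean over the 4 libraries, from TMM-scaled CPM, for the 9 tested members in the order of their TPM. Points are libraries. Replicate 2 (squares) lies lowest for 7 of the 9, with Plxna1 at -0.31, and Nrp1 reaches 0.19 in replicate 3.

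The libraries in which the members were lowest and highest were then set beside those of other genes. By TPM, 7 of the 9 expressed members were lowest in replicate 2, where 23.3% of the 11054 protein-coding genes tested were lowest, and 2 of the 9 were lowest in replicate 1, where 54.0% were. Of the 9 members 6 were highest in replicate 3, as were 39.2% of the protein-coding genes. The exceptions to the low replicate 2 were Plxnb2 and Plxnc1, the 2 least abundant of the 9, which were lowest in replicate 1. With TMM-scaled CPM, which is not moved by the rRNA-related feature of replicate 1, 7 members were again lowest in replicate 2, as were 30.4% of the protein-coding genes, and 5 were highest in replicate 3, as were 23.1%. The members share libraries, so these are counts over genes and no test.

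Gene length moved with this pattern. The members have a median exon length of 7210 bp, against 4151 bp for expressed protein-coding genes, and Sema7a alone is under 5000 bp. Among protein-coding genes of 5000 bp and over, 53.2% were highest in replicate 3 and 26.5% lowest in replicate 2, against 20.3% and 16.2% among genes under 2000 bp, by TPM. By TMM-scaled CPM the shares among genes of 5000 bp and over were 32.6% and 35.9%. On the log2 scale the median deviation in replicate 2 was -0.15 for the 9 members and -0.02 for genes of 5000 bp and over. The part of length in the members' spread was not tested.

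The spread itself differed between members. The coefficient of variation of TPM over the 4 libraries ran from 6.60% for Sema4a to 16.1% for Plxnb2, with a median of 9.99%, beside 8.10% for all protein-coding genes with a mean of at least 1 TPM. Nrp1 and Plxna1 had 13.6% and 13.9%, Sema4d and Sema7a 8.45% and 8.56%, and Plxnd1 7.06%. The ratio of the highest to the lowest library was 1.44 or less for each of the 9. Both ends of the range of coefficients depended on the scale. With TPM over protein-coding genes only, Sema4a had 7.84 ± 0.786 and Sema7a 76.2 ± 5.02, so Sema7a varied less for its level. On that scale Plxnb2 had 4.04 ± 0.516 and Plxna1 21.4 ± 3.00, so Plxna1 varied more for its level.

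Genes with the pattern most like a member's over the 4 libraries were sought among 11053 protein-coding genes, by the root mean square difference of log2 CPM after each gene was centred on its own mean. Nearest to Nrp1 were Tead1, Rab12 and Pde4c, at 0.0126, 0.0172 and 0.0185, and 0.660% of genes lay within 0.05. Nearest to Sema4d were Tnfrsf21, Dnmt3a and Aldh2, at 0.00999, 0.0108 and 0.0115, with 3.18% of genes within 0.05. Nearest to Plxnb2, which had the largest coefficient of variation in TPM among the 9 members of at least 1 TPM, were Zfp473, Immp2l and Fam213a, at 0.0122, 0.0130 and 0.0166, with 0.253% within 0.05. With 4 libraries such nearness describes 4 values per gene and no more.

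Counting across overlapping genes touched few members. Nrp1, Sema4a and Plxnc1 share 0.818%, 1.35% and 1.38% of their exon length with a gene on the same strand (Mir1903, Mir7011 and Gm48718), where such fragments were not counted. Plxna1 shares 10.7% of its exon length with Gm26811 on the opposite strand, which the stranded counting keeps apart. The other 6 members share 0 bp on either strand. Counts are per gene, so membrane and soluble forms of Nrp1 were added together.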

How the data were processed

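Each of the 4 libraries is a biological replicate by its label, and together they form 1 group. The labels name the assay total RNA-seq and link a library protocol named for polyA+ RNA. Which of the RNA selections was used could not be told. Per the file headers, the authors deposited whole-number fragment counts per gene, made with featureCounts 1.4.6-p4 on GENCODE M13 (mm10) with strand setting 2 and both ends mapped. Fragments that overlapped more than 1 gene or mapped more than once were not counted, as that program's defaults have it. The aligner appears only as star in the output names in those headers.

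Identifiers were matched to symbols with GENCODE M21 (50376 of 50600). TPM was computed from the counts and the deposited exon-union length, which makes levels comparable between genes. Variation between libraries was tested in edgeR 4.0.16 (R 4.3.3) with an intercept-only quasi-likelihood fit, TMM scaling and its default filter on low counts, which 12396 genes and 9 of the 10 members passed (Nrp2 did not). Each gene's dispersion was divided by its trended prior, and p came from the upper tail of an F distribution. This dispersion test was built on the edgeR fit and is not edgeR's own test of a coefficient. The p-values were adjusted by Benjamini-Hochberg over all genes tested. DESeq2 1.42.0, RLE scaling, no filter, a non-robust prior, leaving out each library, FPKM, protein-coding TPM and the longest transcript's length were alternatives. No pair of libraries was a duplicate. Genes named were all 10 members, and from each pathway list and the rest of the family the 3 highest and the lowest where under 1 TPM. The 3 genes nearest in pattern to Nrp1, to the highest member and to the most variable by TPM were also named. Markers of at least 10 TPM fall under the same rule and are given mostly as counts. Genes at 0 and a few others were named for their role after their values were seen. The members and lists were chosen with earlier results of these data known.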

Additional observations from a re-analysis of the deposited data

Results flagged for a closer look

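The 10 members and the 3 class sums, 13 values in 4 libraries each, were examined for a library far from the others. Chance flags about 1 in 20 such values, or 0.65 over the 13, and the plexin sum shares most of its level with Plxnd1. The value found was that of 1 member: Plxnd1 had 43.5 TPM in replicate 2, and 49.8, 51.0 and 50.1 TPM in replicates 1, 3 and 4. The gap was 0.838 of the whole range, just past Dixon's 95% critical value for 4 libraries. By TMM-scaled CPM Plxnd1 had 115.8, 93.9, 107.4 and 108.9 in replicates 1 to 4, so replicates 1, 3 and 4 lay further apart. Dixon's test was not run on that scale. In the quasi-likelihood dispersion test Plxnd1 had an adjusted p of 0.974, and replicate 2 was also the lowest library of 6 other members.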

How the results depend on the processing

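The number of genes called variable between libraries was 58 by the quasi-likelihood dispersion test. It was 110 with no filter on low counts (21459 genes tested), 36 with a non-robust prior and 59 with RLE scaling. It was 69 by DESeq2, and 37 to 69 with 1 library left out. No member was called under any of these, with adjusted p-values of 0.328 to 0.997. The median of the members' levels, 22.9 TPM, was 6.87 in FPKM and 21.9 to 23.97 TPM with 1 library left out. FPKM differs from TPM by a factor set for each library, and the means of the expressed members in FPKM were 0.299 to 0.300 of those in TPM. The FPKM sums were 81.5 for semaphorins, 23.9 for plexins and 10.1 for neuropilins. On that scale 8 members reached 1 and 4 reached 10. In all, 78 genes of the family, pathway and marker lists together reached 1, against 96 by TPM. With 1 library left out the sums were 265 to 280 TPM for semaphorins, 77.7 to 83.1 for plexins and 31.6 to 35.1 for neuropilins. With the length of the longest transcript the neuropilin sum was 71.5 TPM and the plexin sum 66.6 TPM, and 1 of the 9 orders of neighbours was reversed: the difference of Plxnd1 minus Nrp1 was -0.79 on the log2(TPM + 1) scale. The other 8 orders held in each library under the alternatives run. The ratio of Sema4d to Plxnb1, 78.9, was 102.4 with that length, an alternative chosen after seeing the data. No paired analysis was possible because there is 1 group only. Depth limits Nrp2 and the family genes at 0 fragments.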
